A study of Mus musculus with 10 samples.

Results

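DSIF, made of Spt5 and Spt4, and NELF, made of 4 subunits, are the protein complexes that hold RNA polymerase II in promoter-proximal pausing. The transcripts described here are those of Supt5 (Spt5), Supt4a (Spt4), Nelfa, Nelfb, Nelfcd and Nelfe, together with Supt6, which encodes the elongation factor and histone chaperone Spt6. They were chosen by name, as the direct targets of the Spt5-Pol II inhibitors and their closest partners, and the rule itself uses no measured value. All 7 are among the 21230 genes of the deposited table, and all 7 had a mean normalized count above the minimum of 10 that 15871 genes reached and that was required for testing.

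Shortly after initiation, DSIF binds the polymerase and, together with NELF, halts it close to the start site. The kinase P-TEFb then phosphorylates NELF and the C-terminal repeat region of Spt5. NELF leaves, and DSIF stays on the polymerase as a factor that favours elongation. Spt6 travels with the elongating polymerase and rebuilds nucleosomes behind it. Spt4 and Spt5 are known to support transcription through long repeats, and the contact of Spt5 with the polymerase has been targeted to lower mutant huntingtin.

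The libraries are labelled as striatum and came from punches of 10 BACHD mice, male and female, about 3 months old at the start. BACHD mice are FVB/N mice heterozygous for a bacterial artificial chromosome with the full-length human mutant huntingtin gene, and they keep their own Htt. SPI-24 is an Spt5-Pol II inhibitor, and 5 mice received it for 8 weeks from an osmotic pump under the skin, while the 5 mice of the DMSO group received the vehicle by the same route. All 10 mice carried the transgene and no wild-type group is analysed here, so SPI-24 can be compared only with vehicle in transgenic mice. Each library is labelled as a separate biological replicate.

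The values are normalized counts, that is, the reads of a gene divided by a size factor for each library. Reads assigned to genes, recovered from these values, numbered 5478283 to 46923225 a library in the DMSO group and 7381308 to 29559866 in the SPI-24 group. DMSO replicate 3 was the shallowest, and 22.7% of 2425 genes with a mean between 100 and 250 had no read in it, against 10.6% in SPI-24 replicate 2, 8.21% in SPI-24 replicate 5 and at most 1.94% in the other 7 libraries. The striatal label was checked with markers of medium spiny neurons and of other cells, and for several libraries they went against it. Drd1, the D1 dopamine receptor, was at 0 in DMSO replicate 3 and reached 2525 in SPI-24 replicate 5, and Ppp1r1b (DARPP-32) ranged from 1171 to 38145. The summed level of 14 medium spiny neuron markers ranged from 8340 to 165164 in DMSO and from 7712 to 171037 in SPI-24, and that of 8 choroid plexus markers from 5606 to 230353 and from 5954 to 45718. Prkcd, a thalamic marker, ran the other way in some libraries but not in all. It was at 10295 in DMSO replicate 3 and at 9952, 10153 and 8416 in SPI-24 replicates 1, 3 and 4, where Drd1 was between 0 and 19.2, and at 266 in DMSO replicate 1, where Drd1 was 2129. In DMSO replicate 5 both were low, with Prkcd at 385 and Drd1 at 40.7. Prkcd was at 6819 and 6527 in DMSO replicate 4 and SPI-24 replicate 2, where Drd1 was 668 and 537. It was at 5504 in DMSO replicate 2, with Drd1 at 78.8, and at 4149 in SPI-24 replicate 5, where Drd1 was highest. The summed level of 12 thalamic and hypothalamic markers ranged from 3259 to 47027 in DMSO and from 10139 to 47026 in SPI-24. Libraries low in spiny neuron markers and high in Prkcd were thus present in both groups, against their label. With the medium spiny neuron level as a covariate no member was called, and the log2 fold changes ranged from -0.14 for Supt6 to 1.22 for Nelfa. As a mean log2 deviation, that level averaged 0.02 in DMSO and -0.02 in SPI-24, so it could move these fold changes little. Because these are bulk samples, fewer cells of a type and less RNA per cell cannot be told apart.

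The genes lie on 5 chromosomes (GRCm38, GENCODE M21). Supt5 spans chr7:28314891-28338746 on the minus strand with 5764 bases of exon, and Supt4a spans chr11:87737552-87743623 on the plus strand with 942. Nelfa (chr5:33897916-33936413, minus strand), Nelfb (chr2:25199712-25211489, minus), Nelfcd (chr2:174415804-174427502, plus) and Nelfe (chr17:34850391-34856372, plus) have 3947, 3432, 2883 and 2076 bases of exon. Supt6 is at chr11:78206746-78245987 on the minus strand with 7095 bases of exon. All 7 are annotated as protein coding.

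Supt4a has a near-identical copy, and its sequence bears on what could be counted. Supt4b is annotated as a processed pseudogene of a single exon at chr10:31413815-31414165 on the minus strand. Over 351 bases that start at the first base of the Supt4a start codon, 348 (99.1%) are identical, and the 3 differences are A21G, C84T and T182A, with positions counted from 1 at that base, the Supt4a base first. The first 60 bases of this alignment are shown to let the likeness be seen, with the single difference among them in capitals.
Supt4a: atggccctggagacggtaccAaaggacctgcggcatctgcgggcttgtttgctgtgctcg
Supt4b: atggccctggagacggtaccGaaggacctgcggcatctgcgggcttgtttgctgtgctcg
Reads were 50 bases long, and 181 of the 990 distinct 50-base stretches of Supt4a transcripts (18.3%) also occur in Supt4b or in its antisense transcript Gm48094. A read from such a stretch matches more than 1 place, and the authors discarded multi-mapped reads, so both genes may be undercounted. Supt4b was low in all 10 libraries. Its normalized count was 27.4 in DMSO replicate 1, 22.2 in SPI-24 replicate 1 and 14.2 in SPI-24 replicate 4, and it was at most 1.31 in the other 7 libraries, 3 of which had no read.

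The other members shared fewer 50-base stretches with other genes. The share was 7.4% for Supt5, with the antisense gene Gm44709 first among the genes that share them, 2.88% for Supt6, 0.282% for Nelfa and 0 for Nelfb, Nelfcd and Nelfe. Exons overlapped a gene on the opposite strand over 433 bases in Supt5 (Gm44709), 242 in Supt6 (Sdf2), 60 in Nelfa (Nsd2) and 10 in Nelfcd (Ctsz). Libraries were stranded, but no source used here names the strand setting of the counting, so in these stretches the reads of both strands may not have been told apart.

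The first question was whether 8 weeks of SPI-24 changed the transcripts of its own target complex or of its partners. For this pump treatment the authors report that little SPI-24 remained in the brain and that no effect on Htt protein was detected. By DESeq2 with a fold-change threshold they also list a small set of genes as changed, mostly lower, and none of the 7 is among them. None of the 7 genes differed between the groups (limma with Benjamini-Hochberg adjustment over all genes tested, adjusted p = 0.999 for each). The background was the same, as this limma test called 0 of 15871 genes (0%). At an unadjusted p under 0.05, 354 genes (2.23%) were found and none of them was a member. The groups overlapped for all 7, whereas they did not overlap for 82 genes (0.517%), with SPI-24 higher for 31 (0.195%) and lower for 51 (0.321%).

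Supt5, the target of the inhibitor, was the steadiest of the members. Its normalized count was 1203, 1299.9, 1661, 1669.8 and 1665 in DMSO replicates 1 to 5 and 1216, 1251, 1588, 1790.0 and 1860.5 in SPI-24 replicates 1 to 5. Each group held libraries up to 1299.9 and libraries from 1588 up, and the ranges overlapped almost fully. The means were 1500 ± 229 (SD, n = 5) and 1541 ± 298 (SD, n = 5). The log2 fold change was 0.03 with an SE of 0.18 and a 95% interval from -0.36 to 0.42, with an adjusted p of 0.999 by limma.

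Supt4a encodes the small zinc-finger subunit that binds Spt5 and completes DSIF. It stood at 826, 757, 581, 695 and 488 in the DMSO libraries and at 725, 780.2, 790.2, 561 and 406 in the SPI-24 libraries, in replicate order. The lowest library of all was SPI-24 replicate 5 and the highest DMSO replicate 1, with the other SPI-24 libraries inside the DMSO range. The means were 669 ± 136 and 652 ± 166 (SD, n = 5 each), and the log2 fold change was -0.06 with a 95% interval from -0.60 to 0.49.

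Among the NELF subunits, Nelfb had the difference of smallest p. NELF-B is the scaffold that joins NELF-E to the rest of the complex. Nelfb was at 560.1, 1230.3, 762, 899 and 929 in the DMSO libraries and at 966, 1358, 1318, 1232 and 911 in the SPI-24 libraries. All 5 SPI-24 libraries were above the DMSO mean and 3 were above every DMSO library, but DMSO replicates 2 and 5 lay within the SPI-24 range. The means were 876 ± 246 in DMSO and 1157 ± 206 in SPI-24 (SD, n = 5 each). The log2 fold change was 0.43 with an SE of 0.23 and a 95% interval from -0.06 to 0.91, which did not pass the limma test (adjusted p = 0.999). Before adjustment the limma p was 0.0796 with all libraries, 0.0281 without DMSO replicate 2, 0.047 without SPI-24 replicate 5 and 0.2 without DMSO replicate 1, and the log2 fold change without these libraries was 0.56, 0.51 and 0.28. With the medium spiny neuron level as a covariate the log2 fold change was again 0.43. That level was alike in both groups on average, so it could move the fold change little. With the level of Xist, a marker of female samples, as a covariate the log2 fold change was 0.47. Its interval ran from 0.007 to 0.93, with a limma p of 0.0472 before adjustment and 0.998 after it. All 10 cortical and hippocampal markers were measured, and their summed level ranged from 2670 to 11218 in DMSO and from 4785 to 19022 in SPI-24. Of these markers, 5 were at 0 in at least 1 library. As a mean log2 deviation, their level averaged -0.32 in DMSO and 0.32 in SPI-24. Its r with Nelfb over the 10 libraries was 0.72, and r of Nelfb with the other marker lists ran from -0.55 to 0.46. The cortical and hippocampal level was not used as a covariate, and its part in the level of Nelfb was not tested.

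Nelfe encodes the subunit with an RNA recognition motif, which binds the nascent RNA. It varied more than Nelfb, with 749, 448, 243, 519.6 and 329 in the DMSO libraries and 332, 1074, 407, 461 and 379 in the SPI-24 libraries. SPI-24 replicate 2, one of the shallow libraries, was far above the others with 388 reads, and the remaining 4 SPI-24 libraries lay within the DMSO range. The means were 458 ± 195 and 530.5 ± 307 (SD, n = 5 each). The log2 fold change of 0.17 had a 95% interval from -0.64 to 0.99, and it was -0.12 without SPI-24 replicate 2.

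Nelfcd encodes NELF-C or NELF-D, which differ only in their translation start, and pairs with NELF-A. It was at 503, 967, 653, 486 and 742 in the DMSO libraries and at 705, 681, 532, 845 and 341 in the SPI-24 libraries. No shift between the groups is visible in these values, with means of 670.0 ± 197 and 621 ± 192 (SD, n = 5 each). The log2 fold change was -0.13 with a 95% interval from -0.75 to 0.49.

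Nelfa, whose product contacts the polymerase, was the scarcest member and the only one with a library at 0. Its normalized count was 132, 187, 0, 145 and 233 in the DMSO libraries and 70.0, 71.9, 267, 289 and 139 in the SPI-24 libraries. The 0 was in DMSO replicate 3, where 51 reads would be expected at the mean of the other 4 DMSO libraries, 174.3 ± 45.9. The limit that a count of 0 allows, 3 reads, is a normalized count of 10.3 in that library. With counting error only, the other DMSO libraries would be on average at least 17-fold higher. However, as given above, 22.7% of 2425 genes with a mean between 100 and 250 had no read in this library. Zeros in it may not come from counting error alone, so the 17-fold bound is not read as a difference in the transcript. The group means were 139 ± 87.5 and 167 ± 105 (SD, n = 5 each), and the log2 fold change of 1.21 had a 95% interval from -1.60 to 4.02. It became -0.28, with an interval from -1.51 to 0.96, without DMSO replicate 3. Fits to the recovered reads of all 10 libraries, on which a single 0 weighs less, gave a log2 fold change of 0.25 or 0.26 by edgeR with either scaling, 0.26 by DESeq2 and 0.24 by limma-voom, against 1.21 on the log2 scale.

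Supt6 also varied more than Supt5 within both groups. It was at 1398, 1134, 789.5, 1567 and 2028 in the DMSO libraries and at 921, 766, 1194, 1756 and 1631 in the SPI-24 libraries. The highest library was a DMSO and the lowest an SPI-24 library, and the rest were interleaved. The means were 1383 ± 465 and 1254 ± 432 (SD, n = 5 each), with a log2 fold change of -0.14 and a 95% interval from -0.75 to 0.46.

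**Figure D1:**
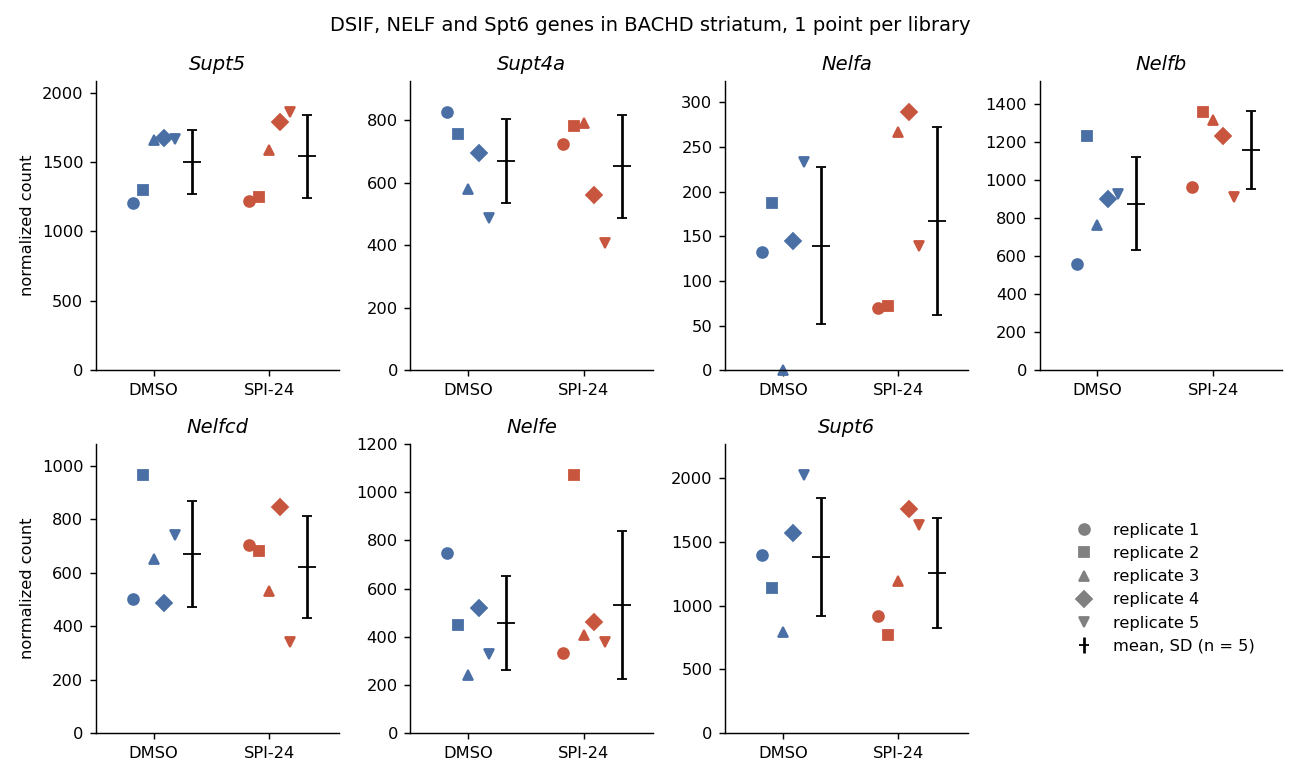
Normalized counts (y axis, a scale for each gene) of the 7 genes in each library of the DMSO and SPI-24 groups (x axis), with a marker shape for each replicate number and the mean and SD of 5 libraries in black. The groups overlap for every gene, SPI-24 replicate 2 stands apart for Nelfe at 1074, and Nelfa is at 0 in DMSO replicate 3.

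A fold change above 0 was found for 4 of the 7 genes, and for 50.2% of all genes tested. How large a change the data could have hidden differs between the members. In the main fit, 6 of the 7 genes (all but Nelfa) had a 95% interval that held no change of 2-fold or more either way, as did 37.9% of the genes tested. This was narrow for Nelfe and Nelfb, with upper bounds of 0.987 and 0.915. Under some alternatives these bounds passed 1, as for Nelfe without DMSO replicate 1 (1.205) and Nelfb without DMSO replicate 2 (1.055). The share of 37.9% is not matched for level, and intervals were narrower among genes of higher mean. The intervals of Supt5 and Supt4a had a mean half-width of 0.47 on the log2 scale, where the median over 15871 genes was 1.01 and over 6272 genes whose mean reached 500 was 0.52. Changes of transcript level within these intervals remain possible with 5 libraries a group. The intervals are for each gene alone and are not the detection limit of the adjusted test, which called 0 of 15871 genes. Larger changes could thus also have gone uncalled. Protein levels or the binding of DSIF to the polymerase were not measured by these libraries.

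**Figure D2:**
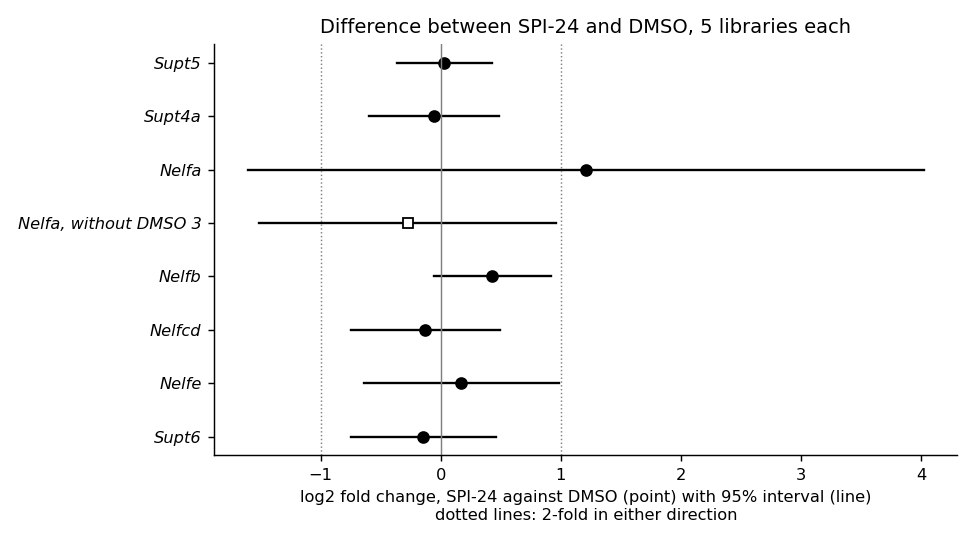
Log2 fold change of SPI-24 against DMSO (x axis) for each gene, with its 95% interval from limma as a line and dotted lines at a 2-fold change. Every interval spans 0, that of Supt5 from -0.36 to 0.42 is the shortest, and the open square shows Nelfa at -0.28 without DMSO replicate 3.

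The spread between libraries differed between the members. Supt5 had between 452 and 4583 reads a library, for which counting alone gives a coefficient of variation (CV) of at most 4.7%, and the observed CV over the 10 libraries was 16.6%. The observed CV was 21.6% for Supt4a, 25.6% for Nelfb, 28.7% for Nelfcd, 32.5% for Supt6, 49.7% for Nelfe and 60.2% for Nelfa. Nelfe had 71 to 1081 reads and Nelfa 0 to 642, so their lowest libraries carried the largest counting errors, at 11.9% for Nelfe and 19.6% for Nelfa at its lowest count above 0. On the log2 scale the SD over libraries was 0.24 for Supt5 and 0.34 for Supt4a, against a median of 0.35 for 1906 genes with a mean from 1000 to 2000, where Supt5 lies, and of 0.445 for 2596 genes from 500 to 1000, where Supt4a lies.

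To compare levels between genes, normalized counts were divided by the exonic length. Supt4a was the most abundant at 702 ± 152 normalized counts per kb (SD, n = 10), 2.37-fold above Nelfb, and it was the highest of the 7 in 10 of 10 libraries. Nelfa was the lowest in 10 of 10 libraries at 38.9 ± 23.4, and Supt6, the next above it, was 4.78-fold higher. The 5 genes between them followed in the order Nelfb (296 ± 75.7 normalized counts per kb), Supt5 (264 ± 43.7), Nelfe (238 ± 118), Nelfcd (224 ± 64.2) and Supt6 (186 ± 60.4). Neighbours in this middle order did not separate beyond their spread. Nelfb was above Supt5 in 5 of 10 libraries, Supt5 above Nelfe in 8, Nelfe above Nelfcd in 5 and Nelfcd above Supt6 in 6. With the length of the longest principal transcript in place of all exons, an alternative chosen after the values were seen, Supt4a stayed the highest at 936 and Nelfa the lowest at 59.5 normalized counts per kb, and Supt5 (405) came before Nelfb (385). The transcripts of the subunits of a complex were thus not at equal levels, since Supt4a was above Supt5 per kb in every library.

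**Figure D3:**
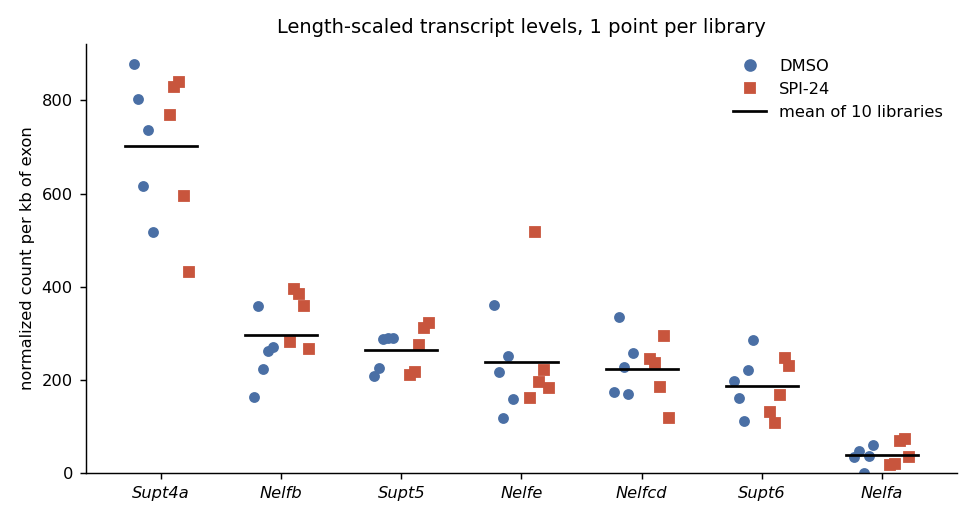
Normalized counts per kb of exon (y axis) of each gene in each library, DMSO as circles and SPI-24 as squares, with the mean of 10 libraries as a line. Supt4a at 702 is above and Nelfa at 38.9 below all other genes, and the 5 genes between 186 and 296 overlap.

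The balance between partner subunits was compared next. The log2 ratio of Supt4a to Supt5 was -1.17 ± 0.51 in DMSO and -1.26 ± 0.65 in SPI-24 (SD, n = 5 each), a difference of -0.09 that was smaller than the spread (exact permutation test, two-sided, p = 0.794, with 0.00794 as the smallest p that 252 splits allow). The ratio of Nelfa to Nelfcd, whose products form a sub-complex, differed by 1.34 (exact permutation p = 0.619), and by -0.15 without DMSO replicate 3. The ratio of Nelfb to Nelfe, which form the other sub-complex, differed by 0.26 (exact permutation p = 0.619), and by -0.10 without DMSO replicate 1. Adjusted over the 3 ratios, each p was 0.794. In libraries of at least 10 M reads the difference in the Supt4a to Supt5 ratio was -0.32, and leaving out 1 library at a time it ranged from -0.23 to 0.15.

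Although neither DSIF subunit differed between the groups, the transcripts of both subunits moved in opposite directions across the libraries. The log2 ratio of Supt4a to Supt5 ranged from -0.54 in DMSO replicate 1 to -2.19 in SPI-24 replicate 5. Libraries with Supt5 near 1200 had Supt4a between 725 and 826, and the library with the highest Supt5, SPI-24 replicate 5 at 1860.5, had the lowest Supt4a, 406. Over the 10 libraries Pearson's r was -0.78 (permutation p = 0.00716, adjusted p = 0.043 over the 6 members compared with Supt5) and Spearman's rho was -0.83 (permutation p = 0.00485, adjusted p = 0.0291). Without the 2 libraries farthest from the median of Supt5, DMSO replicate 1 and SPI-24 replicate 1, r was -0.75. The direction was the same without any 1 library, with r between -0.86 and -0.72, but the adjusted p (exact permutation test) ranged from 0.0339 to 0.207 and was under 0.05 only without DMSO replicate 5 or SPI-24 replicate 3. With each group centred on its own mean, r was -0.77, and permuting within the groups gave an exact adjusted p of 0.111. In the whole table, 81 of 6271 genes whose mean reached 500 had a lower r with Supt5 than Supt4a had, and 20 had a lower r with Supt4a than Supt5 had.

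**Figure D4:**
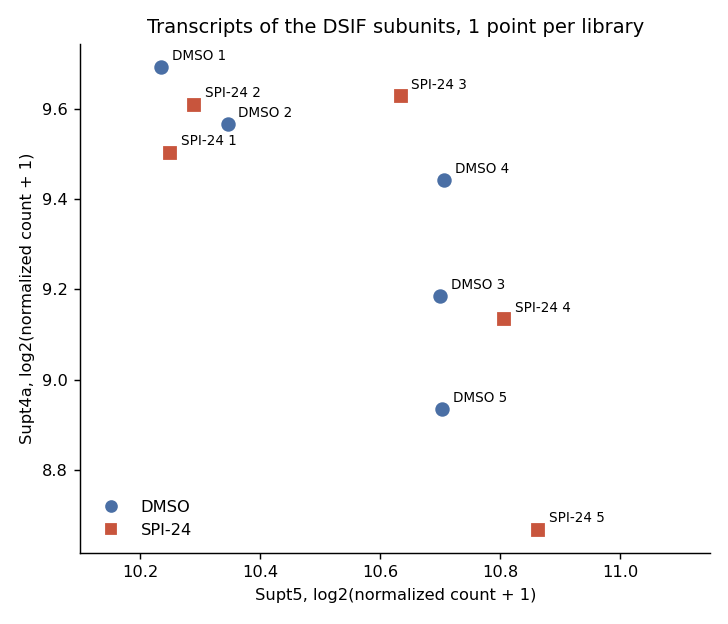
Supt4a against Supt5, each as log2 of the normalized count plus 1, with a labelled point for each library (DMSO as circles, SPI-24 as squares). Points of both groups run from DMSO replicate 1 at the upper left to SPI-24 replicate 5 at the lower right, with r of -0.78.

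The transcripts of this pair also differ in length, and the libraries differed in how they held short and long transcripts. The median log2 deviation of 323 genes with under 1500 bases of exon minus that of 3106 genes with over 5000 bases, all with a mean that reached 500 and with Supt4a and Supt5 among them, ranged from -0.21 in DMSO replicate 4 to 0.26 in DMSO replicates 1 and 2, and averaged 0.01 in DMSO and -0.02 in SPI-24. This measure was chosen after the values were seen. It correlated with the Supt4a to Supt5 log2 ratio with r of 0.67 (permutation p = 0.0346) and rho of 0.78 (permutation p = 0.0104), and r was 0.50 without DMSO replicates 1 and 2, the 2 libraries farthest from its median. After both genes were regressed on it, r between Supt4a and Supt5 was -0.65. Its part in the opposite levels was not tested beyond this.

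No other member had a relation with Supt5 that passed the adjustment. Supt6 had r of 0.55 (permutation p = 0.103, adjusted p = 0.3) and rho of 0.64 (permutation p = 0.0531, adjusted p = 0.159), with r of 0.64 without the 2 farthest libraries and 0.57 with each group centred on its own mean. For the 4 NELF subunits r was between -0.50 for Nelfe and 0.08 for Nelfb, with adjusted p from 0.3 to 0.985 by permutation, and rho was between -0.26 and 0.45, with adjusted p from 0.384 to 0.92. The r of Nelfa was -0.02 over all libraries and 0.64 without DMSO replicate 3.

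The genes whose levels were most like those of Supt5 over the 10 libraries, of 6271 compared, were Hsp90ab1, a cytosolic HSP90 chaperone (r = 0.978), Mon2 (0.959), Pigs, a subunit of the GPI transamidase (0.955), Nol6, a nucleolar protein (0.936), and Ice1, a component of the little elongation complex (0.891). For Supt4a they were Ddrgk1, an adaptor of the UFM1 pathway (r = 0.963), Rspry1 (0.920), Ndufb11, a subunit of respiratory complex I (0.909), Tdrd3, a Tudor domain protein (0.902), and Atp5j2, a subunit of ATP synthase (0.898). These are the highest of many values from 10 libraries and are given as a description. The median r over all genes compared was 0.003 for Supt5 and -0.004 for Supt4a.

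RefSeq promoter sequences (GRCm38.p6) were matched for 5 of the 7 genes, and those of the DSIF pair are shown because their levels moved oppositely. Each is the 250 bases before the annotated start, 5′ to 3′ on the strand of the gene, at chr7:28338720-28338969 on the minus strand for Supt5 and chr11:87737301-87737550 on the plus strand for Supt4a. Capitals mark matches on either strand to the TATA box (TATAAA), the GC box (GGGCGG), the ETS core (CCGGAA), the YY1 core (AAGATGGC) and the CCAAT box (CCAAT).
Supt5: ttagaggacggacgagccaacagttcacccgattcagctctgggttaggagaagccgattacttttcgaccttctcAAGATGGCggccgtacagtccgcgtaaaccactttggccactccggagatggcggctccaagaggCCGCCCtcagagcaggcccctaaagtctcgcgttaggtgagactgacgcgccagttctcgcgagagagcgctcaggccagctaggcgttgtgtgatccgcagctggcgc
Supt4a: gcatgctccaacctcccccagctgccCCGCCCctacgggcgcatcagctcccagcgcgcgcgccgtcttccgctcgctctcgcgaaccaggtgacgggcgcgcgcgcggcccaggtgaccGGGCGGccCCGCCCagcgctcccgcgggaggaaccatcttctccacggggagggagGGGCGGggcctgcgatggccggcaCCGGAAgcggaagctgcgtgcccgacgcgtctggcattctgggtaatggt
The Supt5 window holds 1 GC box and 1 YY1 core, and the Supt4a window 4 GC boxes and 1 ETS core. Neither holds TATAAA or CCAAT. Of 32851 promoters of this length, 32.7% hold GGGCGG, 12% CCGGAA, 1.56% AAGATGGC, 12.4% TATAAA and 33.8% CCAAT. The GC content was 60% for Supt5 and 74.4% for Supt4a, with 22 and 34 CpG dinucleotides, against medians of 52.4% and 6 over all promoters. A match is a description of the sequence and not evidence of a bound factor.

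The other genes of transcription elongation were examined in 5 lists, and 69 of their 74 genes were tested. None passed the adjusted test, and none had an unadjusted p under 0.05, with 354 such genes (2.23%) in the table. Of the 69, 31 had a log2 fold change above 0 and 38 below, with a median of -0.09 against 0.00 over all genes tested, and 35 had an interval within a 2-fold change.

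The subunits of RNA polymerase II, to which DSIF and NELF bind, had a median log2 fold change of -0.21, with 5 of 13 above 0. The smallest p was that of Polr2j, with 558 ± 206 in DMSO and 728 ± 123 in SPI-24 (SD, n = 5 each), a log2 fold change of 0.44 and an interval from -0.13 to 1.01. Polr2d followed at -0.43 and Polr2m, which encodes the polymerase-associated protein Gdown1, at -0.22. In the list of P-TEFb, its regulators and the super elongation complex, which release the pause, 10 of 16 were above 0 and the median was 0.13. Mepce, the enzyme that caps the 7SK RNA holding P-TEFb inactive, had a log2 fold change of 0.41 with an interval from -0.09 to 0.91, Mllt3, a super elongation complex subunit, one of -0.52 with an interval from -1.15 to 0.12, and Eaf2, an ELL partner, one of -2.17 with an interval from -5.31 to 0.97. Eaf2 was scarce, at 7.23 to 270.02 in DMSO and 0 to 78.64 in SPI-24.

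For the PAF complex, FACT, TFIIS and the partners of Spt6, factors that act after release, the median was -0.06 and 6 of 13 were above 0. Cdc73, a PAF complex subunit, was at 412 ± 95.4 in DMSO and 606 ± 159 in SPI-24 (SD, n = 5 each), with a log2 fold change of 0.55 and an interval from -0.04 to 1.15. Htatsf1 was at -0.26, and Tcea3, a TFIIS isoform with no read in libraries of both groups, at -2.14. The Integrator complex, which ends transcription of paused polymerases, had a median of -0.11 with 7 of 17 above 0. Ints12 had the smallest p of the 5 lists, with 357 ± 178 in DMSO and 163 ± 45.0 in SPI-24 (SD, n = 5 each), and a log2 fold change of -1.0. Nabp2, an Integrator partner, was at 0.43 and Ints10 at -0.67. Among the capping enzymes and the kinases of the polymerase's C-terminal domain, 3 of 10 were above 0 and the median was -0.20, with Ccnh (cyclin H) at 0.72, Rngtt, the capping enzyme, at -0.59, and Cdk7, the partner of cyclin H, at 1.45 with an interval from -1.38 to 4.27 and a DMSO library at 0. All 15 genes named here had an adjusted p of 0.999 by limma.

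**Figure D5:**
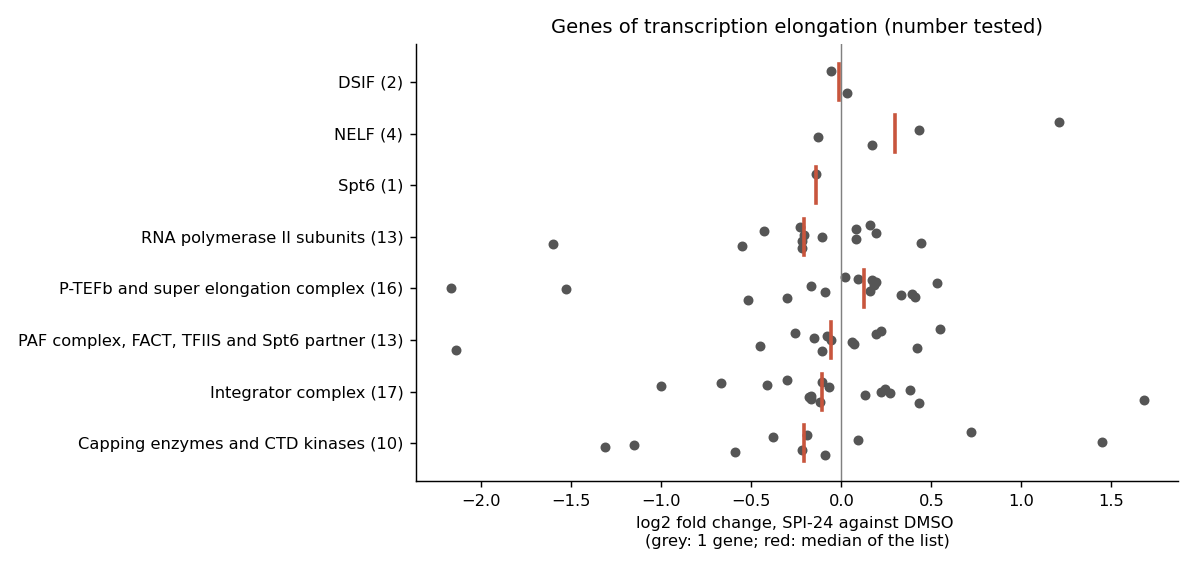
Log2 fold change of SPI-24 against DMSO (x axis) for each gene tested (grey points) of the DSIF, NELF and Spt6 genes and of 5 other lists, with the number of genes beside each list and the list median in red. Medians lie between -0.21 and 0.30, and the points far from 0, such as Eaf2 at -2.17, belong to genes with intervals that span 0.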

How the data were processed

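RNA of 10 punches labelled as striatum was sequenced as single reads of 50 bases from stranded libraries of polyadenylated RNA. The authors trimmed reads with cutadapt, aligned them to GRCm38 with STAR, removed multi-mapped reads and those under 30 bases, obtained gene counts from htseq-count, and divided them by DESeq2 size factors. No source used here gives the versions. The transgene is human, and reads were aligned to the mouse genome. The deposited values are therefore a signal, the normalized count per gene and library. The authors' own fold changes and p-values in the same table were not used, and 0 further sample columns were left out. Reads were recovered by dividing each value by that of 1 read in its library, and 100.00% of 154521 values above 0 were whole within 0.1 read. These reads, which are only those assigned to genes, averaged 24.1 M a library over an 8.57-fold range, which bounds precision for shallow libraries.

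Groups were taken from the sample labels. They were compared with limma 3.58.1 (trend) in R 4.3.3 on log2(normalized count + 1), without covariates, for 15871 genes with a mean of at least 10. This scale understates changes of genes that are low throughout and gives much weight to a single library at 0, as for Nelfa. Benjamini-Hochberg adjustment ran over all genes tested, with a threshold of 0.05. Ratios were compared by exact permutation tests, and correlations by 100000 permutations. Alternatives were edgeR 4.0.16, DESeq2 1.42.0 and limma-voom on recovered reads, other pseudocounts, filters and scaling, covariates, the replicate number as a block and each library left out. The tests were also run on simulated counts. These were drawn independently for each gene and do not carry the shared differences in cell type markers between the libraries.

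The members and the gene lists were chosen with earlier results of these data known. Besides the members, up to 3 genes of smallest p per list, the 5 genes most like Supt5 and Supt4a, near-identical copies and defining markers were named. P-values set a difference or a correlation against the spread between libraries labelled as separate biological replicates. That spread also holds differences in depth and in cell type markers. Of the 21230 gene identifiers, 21195 were found in GENCODE M21.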

Additional observations from a re-analysis of the deposited data

Results flagged for a closer look

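Of 20 groups of 5 libraries examined for the members and their ratios, 2 held a library far from the other 4, and chance alone gives about 5% of groups. Nelfe reached 1074 normalized counts in SPI-24 replicate 2, where the nearest SPI-24 library was at 460.8. The log2 ratio of Nelfa to Nelfcd was -9.35 in DMSO replicate 3, where Nelfa had no read, and the nearest DMSO library was at -2.36. The size of this low ratio is set by the pseudocount of 1 that stands in for the count of 0. The difference between the groups in this ratio was 1.34 with that pseudocount and 1.53 with one of 0.5.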

How the results depend on the processing

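No member was called under any of the 23 alternatives, and the lowest adjusted p was 0.921. Of 160 fold changes of members under alternatives, 143 kept their direction and 17 did not, none of them called. Over all genes, DESeq2 with its defaults called 5 genes, all lower in SPI-24 and none of them a member, and every other alternative called 0, limma-voom and edgeR included. For Nelfa, edgeR, DESeq2 and voom gave 0.241 to 0.259 against 1.208 by limma. With voom the log2 fold change was 0.016 for Supt4a and -0.086 for Nelfe, and in libraries of at least 10 M reads it was -0.037 for Nelfa and -0.320 for Nelfe. Leaving out 1 library at a time gave -0.045 to 0.111 for Supt5, -0.163 to 0.105 for Supt4a, -0.275 to 1.693 for Nelfa, 0.279 to 0.563 for Nelfb, -0.254 to 0.072 for Nelfcd, -0.118 to 0.376 for Nelfe and -0.329 to 0.015 for Supt6. It gave differences of -0.23 to 0.15 for the Supt4a to Supt5 ratio, -0.15 to 1.77 for Nelfa to Nelfcd and -0.10 to 0.48 for Nelfb to Nelfe. The correlation of Supt4a with Supt5 was -0.86 to -0.72 (adjusted p 0.0339 to 0.207, exact permutation), -0.77 with groups centred (0.111) and -0.65 after regression on the difference between short and long transcripts. Without 1 library, the r of Nelfa ranged from -0.12 to 0.64 and that of Nelfb from -0.39 to 0.28. The causes were not tested.

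No pairing of the samples by replicate number was seen, with correlations of same-numbered deviations from -0.13 to -0.01. Whether a number stands for a shared condition was not tested. With the replicate block 0 genes were called, and the Supt4a to Supt5 ratio differed by -0.09 (exact paired test, p = 0.625).

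Low read numbers limit Nelfa most, as 3 libraries held under 100 of its reads, and Nelfe had under 100 in 1 library. With 5 libraries a group, changes within the intervals given were not told apart from no change. These intervals are for each gene alone and are not the detection limit of the adjusted test. Larger changes were thus not sure to be called either.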
